A study of Homo sapiens with 6 samples.

Results

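The genes described here are 31 members of the p53 pathway, namely regulators of p53 and established direct targets of this transcription factor. They were chosen by name, and all 31 were found among the 57820 genes of the count tables. RNA-seq was performed on untreated AID-DivA cells, an osteosarcoma line derived from U2OS that carries an AsiSI nuclease which cuts the genome once it is sent to the nucleus. The nuclease was not activated in these samples, so the comparison concerns p53 target expression without induced breaks. There were 3 WT samples and 3 ARID1A-KO samples, replicates 3, 4 and 5 of each genotype, and both genotypes carry the nuclease. ARID1A is a subunit of the SWI/SNF chromatin remodeling complex, and its gene was disrupted with Cas9 and crRNAs against its coding sequence. Knockout clones were established, but the methods do not say which of them gave the RNA. The 3 ARID1A-KO samples may therefore derive from 1 clone, and a difference between clones cannot be told apart from an effect of ARID1A. In these bulk samples, fewer cells of a type and less RNA per cell cannot be told apart either.

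p53 is a transcription factor that is kept low by the ubiquitin ligase MDM2 and is stabilised when kinases of the DNA damage response modify it. It then binds short response elements in target genes, which arrest the cell cycle, repair DNA, change metabolism or trigger apoptosis. Several targets act back on p53: MDM2 degrades it and the phosphatase PPM1D removes damage-induced phosphates. U2OS cells are known to keep functional p53, together with a truncated and hyperactive PPM1D, and are therefore widely used to study this pathway.

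ARID1A mRNA was counted in all samples as a check of the labels. It measured 166, 178 and 177 CPM (counts scaled to library size with TMM factors) in WT replicates 3, 4 and 5, and 25.1, 27.5 and 25.2 in ARID1A-KO. Its log2 fold change was -2.74 (SE 0.07, edgeR adjusted p = 9.66e-08). Total counts per sample ranged from 54512105 to 84088708, and the 31 p53 genes took between 0.242% and 0.288% of them. Of the osteoblast lineage markers, RUNX2, COL1A1, SPARC, SPP1 and ALPL were detected, whereas SP7, IBSP, BGLAP and COL1A2 stayed under 1 CPM in all samples. The summed level of this marker list went from between 1235 and 1295 CPM in WT to between 726 and 809 CPM in ARID1A-KO. Most of it came from SPARC and COL1A1, with means of 757 and 447 CPM in WT. Of its 6 tested genes 4 were called lower, against 18.4% of all genes tested. RUNX2 was not called (log2 fold change -0.033, edgeR adjusted p = 0.899). Markers of blood, epithelial, endothelial, liver and muscle cells summed to between 7.17 and 10.3 CPM in WT and between 8.15 and 8.73 CPM in ARID1A-KO. Of these markers 4 could be tested and 3 were called, in both directions. The leukocyte phosphatase PTPRC measured 1.95 ± 0.494 CPM in WT and 0.445 ± 0.263 CPM in ARID1A-KO (log2 fold change -2.10, edgeR adjusted p = 0.00292). The epithelial cadherin CDH1 was lower as well (log2 fold change -1.19, edgeR adjusted p = 0.00593). The epithelial adhesion molecule EPCAM, the most abundant of them in both genotypes, had a log2 fold change of 0.44 (edgeR adjusted p = 0.0274), which was not called without WT replicate 4 (0.0655), WT replicate 5 (0.0599), ARID1A-KO replicate 3 (0.085) or ARID1A-KO replicate 4 (0.0686). HBB had no count in any sample. The part of these shifts in the results below was not tested.

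Response elements were looked for around the starts of the 31 genes, because they are the feature through which p53 reaches its targets. The p53 consensus of 20 bases was searched within 3000 bp on either side of each gene start in GRCh37. Both cores had to match, and up to 2 mismatches were allowed elsewhere. The consensus reads the same on either strand. Of the 31 genes, 12 (38.7%) held 13 such matches, against 1753 of 57657 windows of the same length over all genes (3.04%). With at most 1 mismatch, 5 p53 genes (16.1%) held a match, against 0.562% of all windows. The members were chosen as p53 targets, so this share is a description of the list. The matches of 3 genes that fell in ARID1A-KO cells, and those of GADD45A and CCNG1 with 1 mismatch, are printed below in the direction of transcription, with the cores in capitals.
PLK2: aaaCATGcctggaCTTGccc
ZMAT3: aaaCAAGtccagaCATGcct
CDKN1A: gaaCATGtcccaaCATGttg
GADD45A: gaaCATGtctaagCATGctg
CCNG1: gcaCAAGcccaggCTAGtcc

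PLK2 and ZMAT3 held the matches without a mismatch. The PLK2 match lies at chr5:57758101-57758120, outside the gene and at -2024 bp from its start. The ZMAT3 match lies in an intron at chr3:178787976-178787995, at 2082 bp. In CDKN1A the match has 2 mismatches and lies at chr6:36644226-36644245, at -70 bp from the gene start of the tables and within an untranslated exon of another transcript. The GADD45A match (chr1:68152458-68152477, at 1724 bp) and the CCNG1 match (chr5:162864932-162864951, at 366 bp) are intronic. Of the 6 genes that were lower in ARID1A-KO cells 3 held a match, as did 0 of the 2 that were higher and 8 of the 21 that were not called. MDM2, whose known elements lie in its own gene, had no match of these letters in this window.

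**Figure D1:**
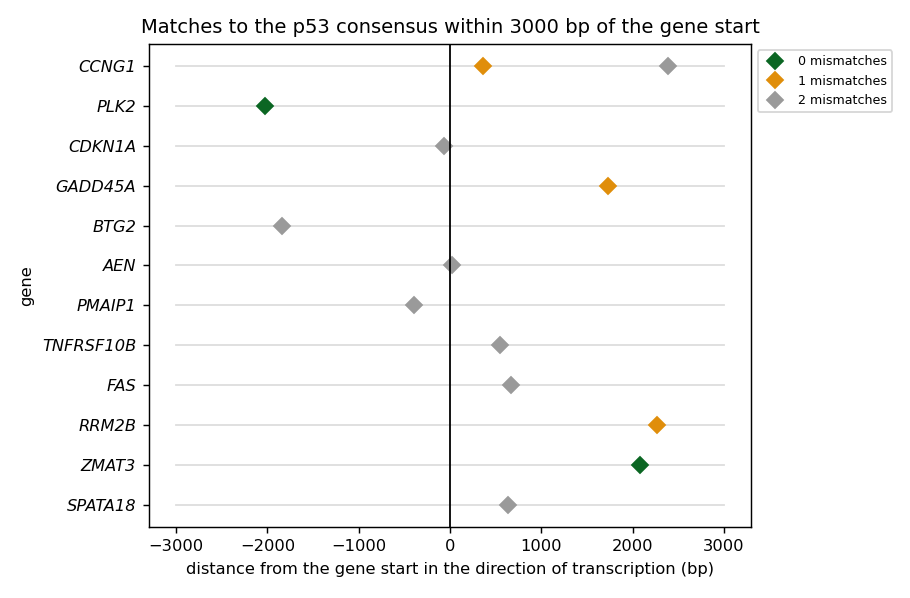
Position of each match to the p53 consensus relative to the gene start, in bp along the direction of transcription, for the 12 genes with a match; colours give the number of mismatches. The matches of PLK2 (-2024 bp) and ZMAT3 (2082 bp) carry no mismatch and lie on opposite sides of the gene start.

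Most p53 genes were expressed in both genotypes, and a minority of them was called as different, as was a minority of all genes tested. Of the 31 genes, 29 had enough counts to be tested, and 8 of these (27.6%) passed an adjusted p-value of 0.05 in edgeR's quasi-likelihood test, where 36.2% of all 19599 genes tested did so. Lower in ARID1A-KO cells were 6 genes (PLK2, CDKN1A, ZMAT3, MDM2, SESN1 and RPS27L), against 18.4% of all genes. Higher were 2 genes (SESN2 and PLK3), against 17.8% of all genes. None of the 8 changed by 2-fold or more, whereas 10.8% of all genes tested were called with such a change. The 29 log2 fold changes lay between -0.81 and 0.66, of which 16 were positive and 13 negative. Their median was 0.011, where that of all genes was 0.0066. The median absolute log2 fold change was 0.15 for the p53 genes and 0.27 for all genes. The 2 sets differ in expression level. The lowest mean log2 CPM of a tested p53 gene was 3.68 (SESN1), whereas only 13217 of the 19599 genes had a value over 1. The part of expression level in these differences was not tested. With the median change of chromosomal neighbours taken off each gene, 9 of the 29 genes were called, 4 higher and 5 lower, where 32.1% of all genes were called in this fit, 15.3% higher and 16.8% lower.

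**Figure D2:**
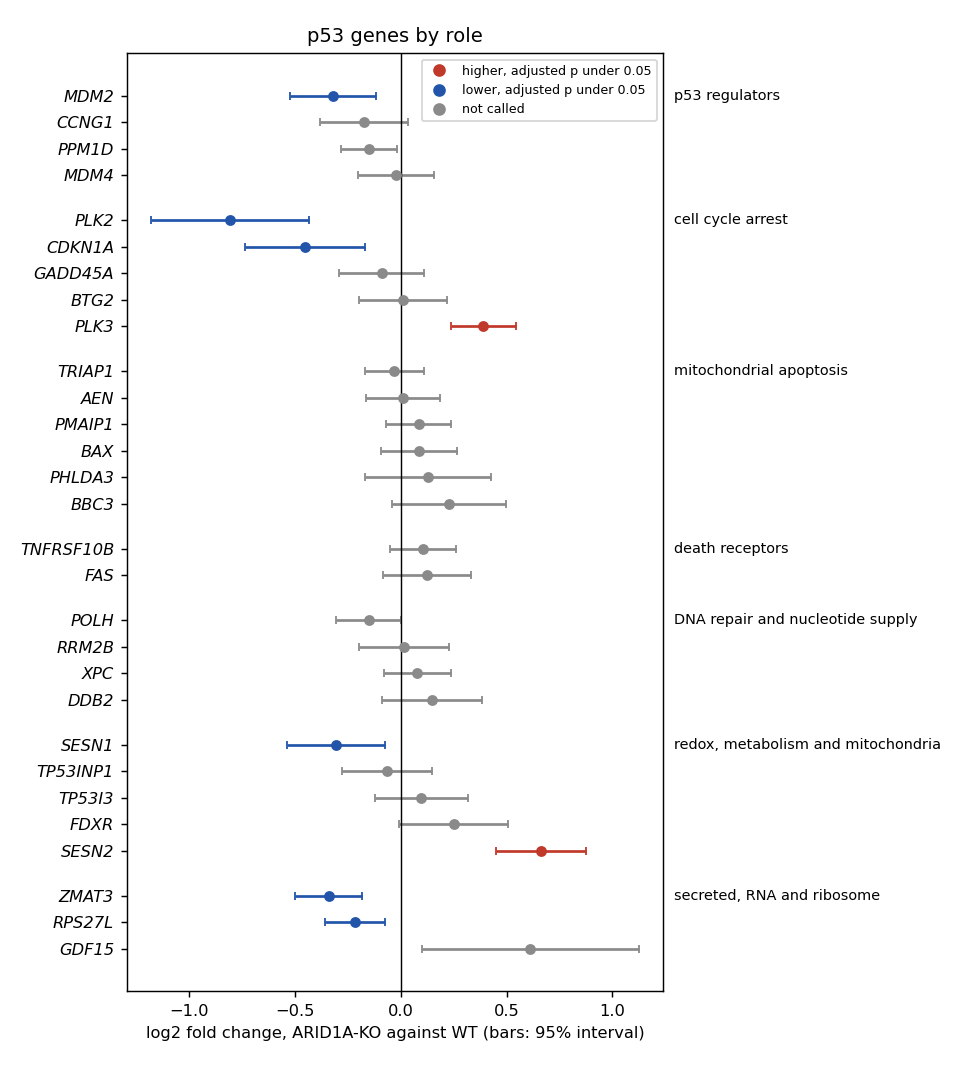
Log2 fold change of ARID1A-KO against WT for the 29 tested p53 genes, grouped by role, with 95% intervals from the edgeR fit (n = 3 per genotype). The 6 lower genes (blue) and 2 higher genes (red) fall among regulators, arrest genes, stress metabolism and the last group. None of them is an apoptosis, death receptor or DNA repair gene. With 36.2% of all genes called, groups of 2 to 6 tested genes are too small to be compared by their calls.

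Among the regulators of p53, MDM2 was lower in ARID1A-KO cells. Its level was 185, 165 and 188 CPM in WT and 134, 135 and 162 CPM in ARID1A-KO replicates 3, 4 and 5. All ARID1A-KO samples lay below all WT samples, although ARID1A-KO replicate 5 came within a few CPM of WT replicate 4. The log2 fold change was -0.32 (SE 0.09, edgeR adjusted p = 0.0203). The call was lost without WT replicate 3 (edgeR adjusted p = 0.0635), WT replicate 5 (0.0718), ARID1A-KO replicate 3 (0.0783) or ARID1A-KO replicate 4 (0.0876).

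The related MDM4, which binds and inhibits p53 without degrading it, measured 57.1 ± 5.76 CPM in WT and 56.1 ± 2.01 CPM in ARID1A-KO (SD, n = 3 each). The 95% interval of its log2 fold change reached from -0.20 to 0.16. The ratio of MDM2 to MDM4 counts was 2.93, 2.92 and 3.65 in WT and 2.45, 2.43 and 2.78 in ARID1A-KO samples, without overlap. PPM1D had 74.9, 73.9 and 74.8 CPM in WT and 65.0, 65.6 and 71.0 CPM in ARID1A-KO. Its groups did not overlap, but its log2 fold change of -0.15 (SE 0.06) missed the threshold (edgeR adjusted p = 0.0775). CCNG1, a cyclin that recruits a phosphatase to MDM2, had 159 ± 18.6 CPM in WT and 141 ± 11.1 CPM in ARID1A-KO, and its samples overlapped. All 4 regulators had a negative log2 fold change, and 1 of them was called, against 36.2% of all genes tested.

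The arrest genes held the strongest fall. PLK2, a polo-like kinase induced by stress, measured 261, 206 and 260 CPM in WT and 122, 114 and 180 CPM in ARID1A-KO. Replicate 5 was the highest of the ARID1A-KO samples and still below the lowest WT sample. Its log2 fold change was -0.81 (SE 0.17, edgeR adjusted p = 0.00464). The call was kept with each sample left out, with log2 fold changes from -1.04 to -0.68.

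PLK3, a kinase of the same family, moved the other way. It measured 29.6, 31.9 and 32.8 CPM in WT and 39.4, 41.3 and 42.9 CPM in ARID1A-KO, so that the groups lay well apart. Its log2 fold change was 0.39 (SE 0.07, edgeR adjusted p = 0.00208). The count ratio of PLK3 to PLK2 was 0.114, 0.155 and 0.126 in WT and 0.324, 0.362 and 0.239 in ARID1A-KO samples.

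CDKN1A, which encodes the CDK inhibitor p21 and is the best known arrest gene downstream of p53, was lower in ARID1A-KO cells. It had 278, 300 and 405 CPM in WT and 237, 252 and 229 CPM in ARID1A-KO. The WT samples were widely spread, with replicate 5 far above the others, and the ARID1A-KO samples were close together. The log2 fold change was -0.45 (SE 0.13, edgeR adjusted p = 0.0198). Without WT replicate 5 it shrank to -0.27 and was still called (edgeR adjusted p = 0.0261). The call was lost without ARID1A-KO replicate 3 (edgeR adjusted p = 0.0564) or replicate 5 (0.0506). Per length, CDKN1A was the highest of the 31 genes in both genotypes, with 110 ± 22.7 RPKM in WT and 80.2 ± 3.84 RPKM in ARID1A-KO (CPM per kilobase of exon, SD, n = 3). GADD45A, a stress sensor that binds CDK1 and PCNA, had a log2 fold change of -0.089, and BTG2, an antiproliferative partner of mRNA deadenylases, one of 0.011. Both overlapped between the genotypes.

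**Figure D3:**
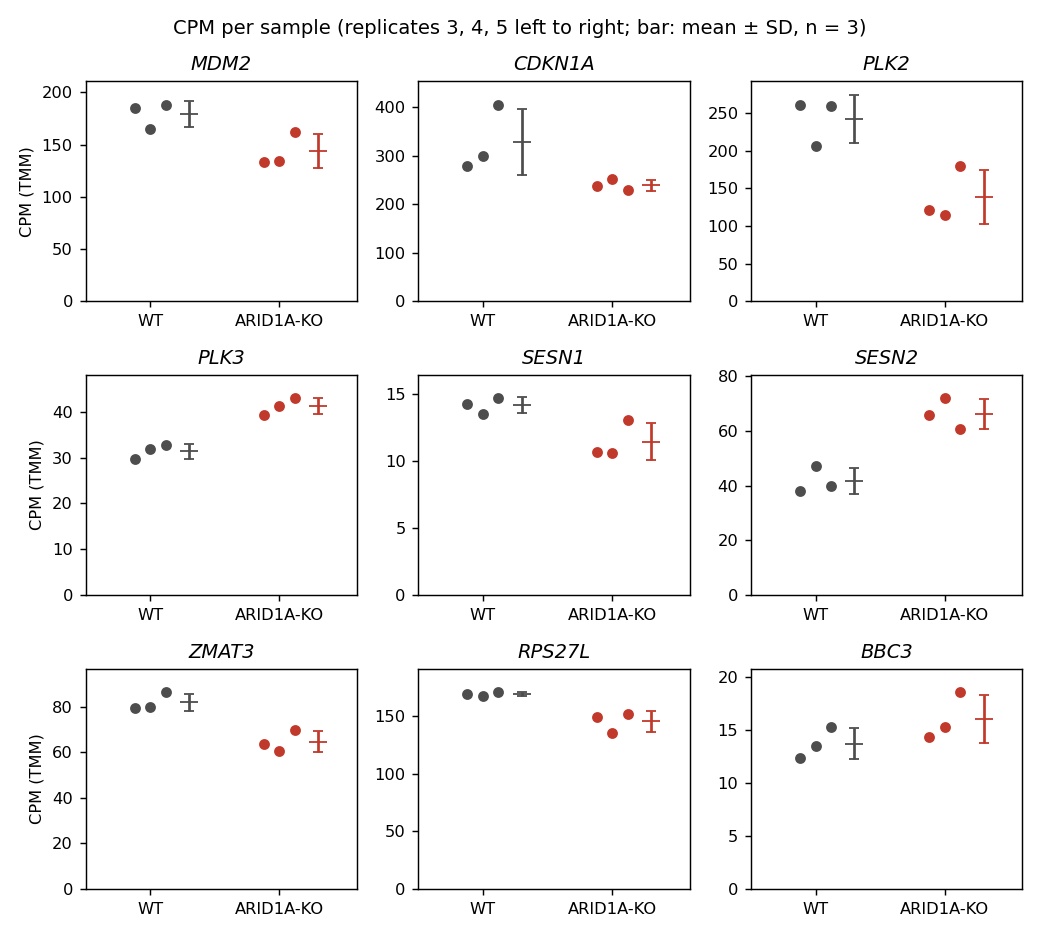
CPM per sample for the 8 called p53 genes and BBC3; each point is a sample (replicates 3, 4 and 5 from left to right) and the bar beside them gives the mean ± SD (n = 3). The genotypes do not overlap in the 8 called genes. Of the ARID1A-KO samples, replicate 5 lies nearest to WT in MDM2, PLK2, SESN1, SESN2, ZMAT3 and RPS27L.

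The group labelled mitochondrial apoptosis also holds apoptosis genes that act elsewhere. None of its 6 genes was called, against 36.2% of all genes tested. BBC3, the BH3-only protein PUMA, measured 12.4, 13.5 and 15.3 CPM in WT and 14.3, 15.2 and 18.5 CPM in ARID1A-KO. The samples overlapped, and the log2 fold change was 0.23 with a 95% interval from -0.042 to 0.50 (edgeR adjusted p = 0.168). PMAIP1, the BH3-only protein NOXA, had 69.5 ± 3.60 CPM in WT and 73.7 ± 4.20 CPM in ARID1A-KO. BAX, which permeabilises the outer mitochondrial membrane, had 159 ± 16.7 and 169 ± 4.22 CPM. For these genes the intervals of the log2 fold change reached from -0.068 to 0.24 and from -0.091 to 0.27, which leaves out a 2-fold change of either sign. PHLDA3, which competes with AKT for membrane lipids, had a log2 fold change of 0.13. The nuclease gene AEN had 0.011 and TRIAP1, whose product restrains apoptosis, -0.029.

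The death receptors were expressed unequally in these cells. TNFRSF10B, a receptor of the ligand TRAIL, measured 123, 145 and 137 CPM in WT and 144, 148 and 145 CPM in ARID1A-KO. Its relative TNFRSF10A had no count in 5 of 6 samples and 2 counts in ARID1A-KO replicate 5, so it was not tested. A count of 0 allows up to 3 counts, which is at most 0.0546 CPM in the shallowest library. The neighbouring decoy receptor TNFRSF10D was also too low to be tested. FAS, the receptor of FAS ligand, had 35.4, 33.2 and 36.4 CPM in WT and 35.3, 35.5 and 43.6 CPM in ARID1A-KO. The samples overlapped, and only ARID1A-KO replicate 5 stood above the others. The log2 fold change of FAS was 0.12 (edgeR adjusted p = 0.325), and that of TNFRSF10B 0.11 (0.257). On the forward strand, whose counts the comparison did not use, 10 p53 genes could be tested and 1, FAS, was called, against 20.3% of all genes tested there.

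None of the 4 genes of DNA repair and nucleotide supply was called, against 36.2% of all genes tested. XPC, which recognises helix-distorting lesions, had 57.0 ± 4.50 CPM in WT and 60.2 ± 1.23 CPM in ARID1A-KO. DDB2, its partner in recognising UV damage, had 79.7 ± 10.6 and 88.2 ± 9.19 CPM. RRM2B, the p53-inducible subunit of ribonucleotide reductase, had 162 ± 17.7 and 164 ± 15.2 CPM. POLH, the polymerase that copies past UV lesions, was 52.7, 55.6 and 60.2 CPM in WT and 49.8, 49.6 and 52.2 CPM in ARID1A-KO. Its samples did not overlap by a narrow margin, and its log2 fold change of -0.15 (SE 0.07) was not called (edgeR adjusted p = 0.111).

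In stress metabolism, the sestrins moved in opposite directions. Sestrins restrain mTORC1 and limit oxidative damage. SESN2 measured 38.1, 47.3 and 39.9 CPM in WT and 65.8, 71.9 and 60.8 CPM in ARID1A-KO, so every ARID1A-KO sample was clearly above every WT sample. Its log2 fold change of 0.66 (SE 0.09, edgeR adjusted p = 0.000656) was the largest rise in the list and was called with each sample left out.

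SESN1 measured 14.3, 13.5 and 14.6 CPM in WT and 10.7, 10.6 and 13.03 CPM in ARID1A-KO. The gap between the groups was small, since ARID1A-KO replicate 5 came close to WT replicate 4. SESN1 had a log2 fold change of -0.30 (SE 0.10, edgeR adjusted p = 0.0444), the called gene nearest to the threshold. The call was lost without WT replicate 3 (edgeR adjusted p = 0.098), WT replicate 5 (0.115), ARID1A-KO replicate 3 (0.154) or ARID1A-KO replicate 4 (0.17), and with counts taken without regard to strand (0.0705). The count ratio of SESN2 to SESN1 was 2.68, 3.50 and 2.73 in WT and 6.17, 6.80 and 4.67 in ARID1A-KO samples.

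FDXR, a mitochondrial reductase, had 73.8, 79.3 and 97.2 CPM in WT and 87.5, 99.5 and 110.5 CPM in ARID1A-KO. The samples overlapped through WT replicate 5, and the log2 fold change was 0.25 (SE 0.11, edgeR adjusted p = 0.118). Without WT replicate 5 it was 0.37 and called (edgeR adjusted p = 0.0296). The quinone oxidoreductase TP53I3 and TP53INP1, which acts in autophagy, had log2 fold changes of 0.098 and -0.064 and overlapped. SPATA18, which acts in the clearance of damaged mitochondria, had 1, 0 and 2 counts in WT and 5, 2 and 10 counts in ARID1A-KO and was too low to be tested.

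In the last group, ZMAT3, an RNA-binding splicing regulator, was lower in ARID1A-KO cells. It measured 79.6, 79.9 and 86.4 CPM in WT and 63.7, 60.7 and 69.7 CPM in ARID1A-KO, and the groups lay apart. The log2 fold change was -0.34 (SE 0.07, edgeR adjusted p = 0.00476), and the call was kept with each sample left out. The 41 other genes tested within 5 Mb of ZMAT3 on chromosome 3 had a median log2 fold change of -0.27. Once this was subtracted, -0.075 remained and ZMAT3 was no longer called (edgeR adjusted p = 0.45).

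RPS27L, a ribosomal protein paralogue, measured 169, 167 and 171 CPM in WT and 149, 135 and 152 CPM in ARID1A-KO. The WT samples were nearly equal, and ARID1A-KO replicate 4 was the lowest. Its log2 fold change was -0.22 (SE 0.06, edgeR adjusted p = 0.0252). The call was lost without WT replicate 3 (edgeR adjusted p = 0.0542), WT replicate 5 (0.0643), ARID1A-KO replicate 3 (0.0507) or ARID1A-KO replicate 4 (0.133), and with the neighbours' median taken off (0.0706). Reads of RPS27L may be shared with RPS27 and related pseudogenes.

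GDF15, a secreted stress cytokine, had 14.5, 11.8 and 12.8 CPM in WT and 13.9, 17.2 and 28.5 CPM in ARID1A-KO. The genotypes overlapped, and ARID1A-KO replicate 5 was far above the rest. The log2 fold change of 0.61 (SE 0.23) was the nearest to the threshold among the genes that were not called (edgeR adjusted p = 0.0621). It was 0.25 without ARID1A-KO replicate 5 (edgeR adjusted p = 0.149), and 0.82 and called without ARID1A-KO replicate 3 (0.0144).

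The CPM of WT and ARID1A-KO samples did not overlap for 10 of the 29 genes, 2 higher and 8 lower in ARID1A-KO. Over all genes tested the groups did not overlap for 49.5%, with 24.8% in each direction. The 8 lower genes were the 6 called ones, PPM1D and POLH.

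Within each genotype, replicate 5 tended to hold the highest level of p53 genes. It was the highest WT sample for 20 of 29 genes (69.0%), where it was the highest for 31.7% of all genes tested. In ARID1A-KO it was the highest for 23 of 29 genes (79.3%), against 41.2% of all genes. The median p53 gene lay 0.077 log2 units above its group mean in WT replicate 5 and 0.11 above it in ARID1A-KO replicate 5. CDKN1A, SESN2, AEN, XPC and TRIAP1 departed from this in ARID1A-KO cells, where replicate 5 was their lowest sample. The labels name no batch, and what sets replicate 5 apart was not tested.

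**Figure D4:**
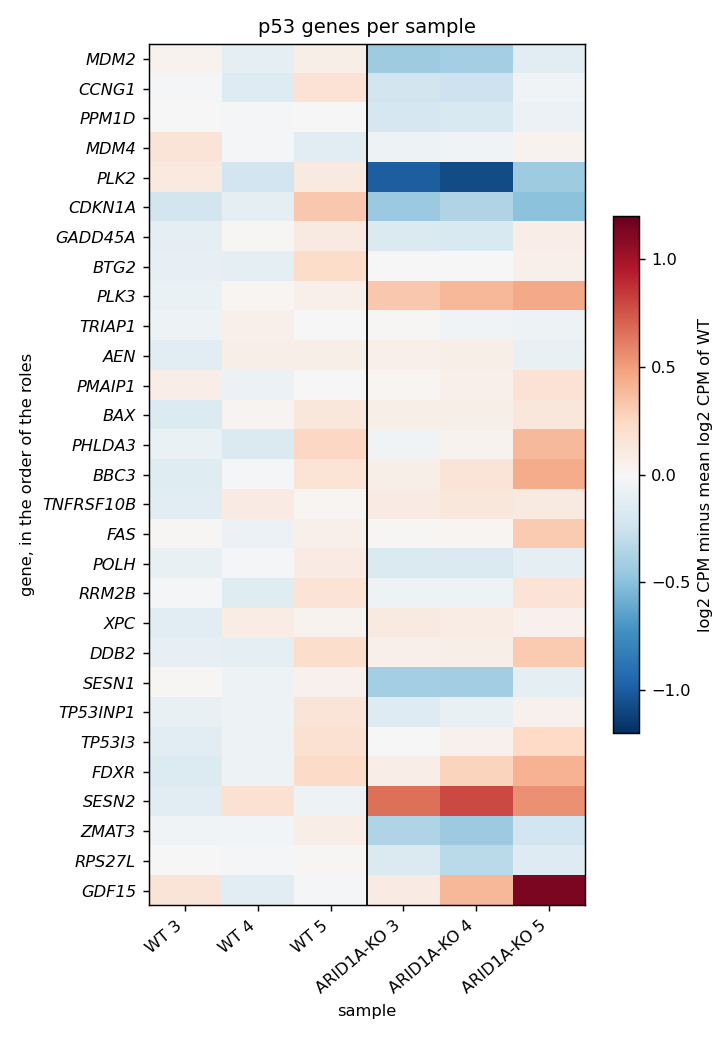
Log2 CPM of the 29 tested p53 genes in each sample, minus the mean log2 CPM of the WT samples (red above, blue below), in the order of the roles. PLK2, SESN2, PLK3 and ZMAT3 separate the genotypes, and WT 5 and ARID1A-KO 5 hold the highest level of their group for 20 and 23 genes.

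The chromosomal neighbourhood of each gene was compared with the gene itself. The median log2 fold change of the other genes tested within 5 Mb was -0.0016 for MDM2, 0.032 for CDKN1A, 0.015 for SESN1, 0.062 for SESN2, -0.12 for PLK2 and 0.15 for PLK3. With it taken off, these 6 genes were still called, PLK3 with a log2 fold change of 0.25 (edgeR adjusted p = 0.0235) in place of 0.39. Neighbours of GDF15 on chromosome 19 had a median of -0.37 over 161 genes, and with it taken off GDF15 was called with 0.98 (edgeR adjusted p = 0.0102). Those of FAS on chromosome 10 had a median of 0.31 over 70 genes, and FAS changed sign to -0.19 without being called. PPM1D (-0.20, edgeR adjusted p = 0.0325) and PMAIP1 (0.25, 0.0214) were also called in this fit. In this fit the median is taken off as a fixed value, so its p-values leave out the spread among the neighbours. DNA copy number was not analysed here.

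**Figure D5:**
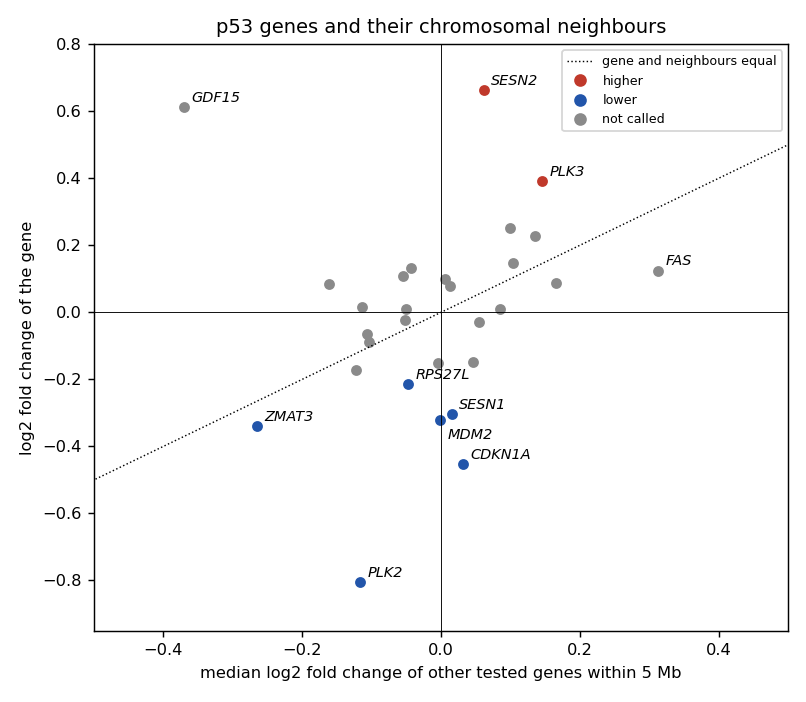
Log2 fold change of each tested p53 gene (vertical) against the median log2 fold change of the other genes tested within 5 Mb (horizontal); points on the dotted line changed as much as their neighbours. GDF15, which was not called, lies farthest from the line, with 0.61 for the gene and -0.37 for its neighbours. PLK2 and SESN2 also lie far from it, whereas ZMAT3 lies near it with -0.34 for the gene and -0.27 for its neighbours.

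Other genes of the pathway were examined as lists. Of 32 further p53 targets, 31 were tested and 9 (29%) were called, 5 higher and 4 lower, against 36.2% of all genes. Their median log2 fold change was 0.0011. PERP, 1 of the higher genes, had no count in WT and passed the filter only through the ARID1A-KO samples. With at least 10 counts in every sample 9 of the list were called, 4 higher and 5 lower. In that fit 6423 of 17480 genes were called. The cytokine LIF fell by 0.83 on the log2 scale (SE 0.11, edgeR adjusted p = 0.00043), from 46.1 ± 6.87 to 25.9 ± 2.0 CPM. The hydrolase CMBL rose by 0.49 (edgeR adjusted p = 0.0188) and lost its call without WT replicate 3 (0.0647) or ARID1A-KO replicate 5 (0.0522).

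The ceramidase ACER2 and the carboxylesterase CES2 moved with their neighbourhoods. ACER2, on chromosome 9, had a log2 fold change of -1.07, and its 27 tested neighbours were shifted by -1.47 in the median. With this median taken off, ACER2 had a log2 fold change of 0.40 (edgeR adjusted p = 0.0352). CES2, on chromosome 16, had 0.38 and its neighbours 0.55, and it was no longer called once these were taken off (-0.17, edgeR adjusted p = 0.121). PERP, a membrane protein of the p53 apoptosis programme, was chosen after its values were seen. It had no count in any WT sample and 97, 81 and 216 counts in ARID1A-KO samples. Set against the floor of 3 counts per WT library, its mean of 1.78 CPM was at least 38.6-fold higher.

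Of 27 kinases, cofactors and other controllers of p53, 26 were tested and 7 (26.9%) were called, against 36.2% of all genes. Of these 3 were higher, against 17.8% of all genes, and 4 lower, against 18.4%. HIPK2, a kinase that phosphorylates p53 towards apoptosis, measured 65.7, 71.8 and 64.2 CPM in WT and 34.4, 35.4 and 34.5 CPM in ARID1A-KO. The groups lay far apart (log2 fold change -0.95, SE 0.07, edgeR adjusted p = 1.05e-05). SETD7, a lysine methyltransferase of p53, fell by 0.80 on the log2 scale (edgeR adjusted p = 6.36e-05), and its neighbours had a median of -0.58. With these taken off, its log2 fold change was -0.23 (edgeR adjusted p = 0.0474). The deacetylase SIRT1 rose by 0.59 (edgeR adjusted p = 0.00024) among neighbours with 0.44, and was not called with these taken off (0.155). PPP1R13L, the inhibitory partner iASPP, rose by 0.37 (edgeR adjusted p = 0.014), but its call was lost relative to its neighbours (0.0754) and when either WT replicate 3 (0.0633) or ARID1A-KO replicate 4 (0.055) was left out. The damage kinase ATR had a log2 fold change of -0.32 (edgeR adjusted p = 0.0134) beside neighbours at -0.49. With these taken off it turned to 0.17 and was not called (edgeR adjusted p = 0.138). CDKN2A, whose alternative product ARF inhibits MDM2, had no count in any of the 6 samples.

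Activated p53 represses cell cycle genes through p21 and the DREAM complex. Of 21 such genes, all tested, 3 (14.3%) were called, against 36.2% of all genes. This count was 6 without WT replicate 4, where 6999 of 20100 genes in all were called, and 7 without ARID1A-KO replicate 5. E2F1 rose by 0.60 on the log2 scale (SE 0.06, edgeR adjusted p = 9.63e-05), from 37.7 ± 1.32 to 57.2 ± 1.94 CPM. FOXM1 fell by 0.38 (SE 0.08, edgeR adjusted p = 0.00568) and the S-phase cyclin CCNA2 by 0.28 (SE 0.06, edgeR adjusted p = 0.00458). The calls of these 3 genes were kept with each sample left out. The median of the list was -0.040, with 9 positive and 12 negative values.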

How the data were processed

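RNA-seq libraries (paired reads, stranded kit) were made from untreated cells in 3 samples per genotype. The labels call the RNA polyA, while the kit named is for total RNA. Per the methods, alignment to hg19/GRCh37 used STAR within the Roddy RNA-seq workflow. The counts are unnormalized integers that the authors deposited, as reads assigned to genes by featureCounts. The methods name a v29 annotation, while the gene names in the tables are older. Reverse-strand counts were used, since the forward strand held 5.83% to 6.15% as many. The tables' FPKM and TPM columns were not used. No pair of replicates differed by as little as sampling noise.

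Counts were filtered with filterByExpr, scaled by TMM and compared with edgeR's quasi-likelihood test (edgeR 4.0.16, R 4.3.3), with no covariate and Benjamini-Hochberg adjustment over all genes. Genes are called below an adjusted p of 0.05, which is also the study's threshold. The SE is the log2 fold change divided by the root of the F statistic. RPKM values use the exonic length of the tables. p53 elements were read from GRCh37 and placed with the GENCODE v44 annotation lifted to it. The fit was tested on simulated data.

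Replicate numbers matched the samples only in part. Deviations from the group means correlated with r = -0.25, 0.50 and 0.33 for numbers 3, 4 and 5 over 13217 genes. WT replicate 3 correlated best with ARID1A-KO replicate 5 (r = 0.41), and ARID1A-KO replicate 3 with WT replicate 4 (r = 0.47). Whether samples of the same number share a batch was not tested.

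All 31 genes were accounted for. Values per sample were given for called genes, MDM2, CDKN1A and BBC3, and from the other lists up to 5 called genes with the largest change and a mean log2 CPM over 1 were named. Per-sample values of further genes were added after their values were seen. Members and lists were chosen with earlier results of these data known. The alternatives were unstranded counts, RLE scaling, a minimum of 10 counts per sample, no filter, DESeq2 1.42.0, the replicate block, an adjusted p under 0.01, the neighbours' median within 5 Mb as an offset, and each sample left out. Results for some genes are not reported here. Intervals and floors cover counting error or the spread of these samples only.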

Additional observations from a re-analysis of the deposited data

Results flagged for a closer look

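Forward-strand counts were not used in the comparison. On this strand 10 of the 31 p53 genes had enough counts to be tested, and 1 of them, FAS, was called, where 20.3% of the 8886 genes tested on this strand were. FAS had 81, 98 and 113 forward-strand counts in WT and 160, 144 and 291 in ARID1A-KO samples, a log2 fold change of 0.87 (SE 0.19, edgeR adjusted p = 0.00386). This signal lay outside the main measurement and was above the level of the WT samples. The forward-strand counts came to 4.27% of the reverse-strand counts of FAS in WT and 7.26% in ARID1A-KO. ACTA2, the smooth muscle actin gene, overlaps FAS by 734 bp on the opposite strand in the tables and rose itself (log2 fold change 0.73, edgeR adjusted p = 0.0129). Its part in the FAS forward-strand counts was not tested. Groups of 3 samples are too small for a test of single outlying samples.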

How the results depend on the processing

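PLK2, PLK3 and SESN2 were called under every alternative at an adjusted p under 0.05, and ARID1A kept its direction and call. RLE normalization, DESeq2 and a minimum of 10 counts called the same 8 p53 genes. Over all genes these fits called 7069 of 19599, 6889 of 24079 and 6423 of 17480, in this order. Without a filter and with the replicate block 10 p53 genes were called, the same 8 plus FDXR and GDF15, 4 higher and 6 lower. Over all genes, 8223 of 36390 were called without a filter and 7477 of 19599 with the block. The samples share only a number, and not every sample correlated best with its own number. Unstranded counts lost SESN1. An adjusted p under 0.01 left 4 p53 genes, 4 of the controllers and 4414 genes in all. With 1 sample left out, between 5 and 8 p53 genes were called (5 without WT replicate 3, ARID1A-KO replicate 3 or ARID1A-KO replicate 4). Over all genes the count moved as well, from 7099 of 19599 in the main fit. It was 5657 of 20137 without WT replicate 3, 5731 of 20106 without ARID1A-KO replicate 3 and 6999 of 20100 without WT replicate 4. The median log2 fold change of the p53 genes ranged from -0.013 to 0.080, the latter without WT replicate 5. Of the 21 p21-DREAM genes, between 3 and 7 were called with 1 sample left out (6 when WT replicate 4 and 7 when ARID1A-KO replicate 5 was dropped). There were 5 if no filter was used, 5 with the replicate block and 6 with the neighbours' median taken off. Over all genes, 8223 of 36390, 7477 of 19599 and 6289 of 19599 were called in these fits, in this order.

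Some genes that were not called changed sign. With the neighbours' median taken off, MDM4 went to 0.029, GADD45A to 0.015, BAX to -0.078, AEN to -0.074, FAS to -0.19 and TP53INP1 to 0.043. With 1 sample left out, MDM4 ranged from -0.093 to 0.046, BTG2 from -0.050 to 0.13, BAX from -0.0013 to 0.15, AEN from -0.065 to 0.061, RRM2B from -0.064 to 0.10, TRIAP1 from -0.070 to 0.0013, TP53INP1 from -0.13 to 0.016 and PHLDA3 from -0.010 to 0.26. The cause of these shifts was not tested.

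Depth limits only TNFRSF10A and SPATA18, which had at most 10 counts in a sample. With 3 samples per genotype, calls of small changes were lost with a sample left out, as given beside MDM2, CDKN1A, SESN1 and RPS27L. For each of these genes, different samples had this effect when left out. Their log2 fold changes stayed negative in all these fits, from -0.42 to -0.27 for MDM2 and from -0.57 to -0.27 for CDKN1A. Those of SESN1 lay between -0.41 and -0.25, and those of RPS27L between -0.25 and -0.16.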
